A study of Rattus norvegicus with 24 samples.

Results

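Choroid plexus transcripts were followed in whole rat brain through 10 genes: Ttr, Enpp2, Sostdc1, Aqp1, Slc4a2, Igf2, Igfbp2, Prlr, Kl and Foxj1. All probe sets of the array table whose platform annotation gives 1 of these symbols alone were taken, which came to 24 of 8799 probe sets and to 10 of 4737 named genes. Of the 24, 21 lay above an intensity floor of 16.5 on at least 3 arrays and were tested, and these cover all 10 genes. The remaining 3 were the Igf2 probe set X16703_i_at, above the floor on 2 arrays, and the Prlr probe sets M34083_at and M19304_at, above it on 0 arrays. A further probe set that lists Ttr among several symbols was not used.

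The choroid plexus is the secretory epithelium of the brain ventricles that makes cerebrospinal fluid. Transthyretin, the product of Ttr, carries thyroxine and the retinol-binding protein, and within the brain its transcript is made mainly by this epithelium. The same cells release growth factors and enzymes into the fluid, move water and ions across their membranes, and carry receptors for blood hormones.

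Each of the 24 arrays measured total RNA of a whole rat brain sample. There were 4 exposed groups of 3 arrays: 5 halothane exposures in 2.5 days, 10 halothane exposures in 5 days, 5 isoflurane exposures in 2.5 days and 10 isoflurane exposures in 5 days. Halothane was given at 0.8% and isoflurane at 1.0%, both are inhaled anaesthetics, and every exposure took 90 min, with 2 a day and 3 h between them. The 12 control arrays were of rats that inhaled halothane for 3 min and were perfused with ice-cold saline, so the controls were not free of halothane, and the labels give the perfusion for them alone. Agent and concentration cannot be told apart here, nor can the number of exposures and the length of the course. The labels do not say that replicates were separate animals, and p-values therefore cover only how far these samples differed, part of which may be technical.

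All arrays shared 1 scale, with 2% trimmed means of 150.1 to 150.2, and array pairs correlated between 0.944 and 0.983. Bacterial spike-in probe sets separated 9 arrays of high signal (controls 1, 3, 10, 11 and 12 and replicate 3 of every exposed group) from 15 of low signal, with a gap of 0.574 on the log2 scale. For Ttr, Enpp2 (D28560_at), Sostdc1 and Igfbp2 (J04486_at and M91595exon_s_at), differences from controls are also given without the replicates numbered 3. Of 44 genes listed as markers of choroid plexus epithelium, 24 were on the array under 1 symbol and 23 were tested. The marker not tested was Kcnj13, a potassium channel of that epithelium, whose mean signal of 6.19 lay under the floor.

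Promoter sequences are shown for Ttr, for Igfbp2, of which 1 of 3 tested probe sets (J04486_at) followed Ttr from array to array in the exposed groups, and for Aqp1, which holds a motif match. They are the 250 bases before the annotated start on the gene's strand, from RefSeq on the rat build GRCr8. An entry was matched for 7 of the 10 genes, with 9 promoters in all. Capitals mark a match to GTTGCC, a short site of the RFX factors that control cilia genes.
Ttr, chr18:12218508-12218757, plus strand: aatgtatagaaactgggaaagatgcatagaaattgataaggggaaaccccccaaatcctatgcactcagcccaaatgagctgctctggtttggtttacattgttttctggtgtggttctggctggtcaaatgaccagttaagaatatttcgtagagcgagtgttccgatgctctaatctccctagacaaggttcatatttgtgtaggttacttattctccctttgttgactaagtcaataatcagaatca
Igfbp2, chr9:81864561-81864810, plus strand: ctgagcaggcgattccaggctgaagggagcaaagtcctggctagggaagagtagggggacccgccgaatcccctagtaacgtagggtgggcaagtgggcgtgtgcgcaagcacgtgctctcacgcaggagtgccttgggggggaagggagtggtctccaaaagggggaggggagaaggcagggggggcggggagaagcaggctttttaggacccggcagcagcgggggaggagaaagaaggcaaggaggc
Aqp1, chr4:85812534-85812783, plus strand: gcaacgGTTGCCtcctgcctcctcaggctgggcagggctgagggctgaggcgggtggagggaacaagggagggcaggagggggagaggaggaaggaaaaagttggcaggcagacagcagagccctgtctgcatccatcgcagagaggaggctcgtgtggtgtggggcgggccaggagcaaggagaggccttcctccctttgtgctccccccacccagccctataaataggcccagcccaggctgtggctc

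GTTGCC or its reverse complement GGCAAC stood in 2 of the 9 promoters, those of Aqp1 and of an Igf2 start, against 9.89% of 33469 rat promoters of that length. TAATCC, a core bound by OTX factors (reverse complement GGATTA), stood in 0 of the 9, against 6.34% of all. TGTTTAC, a forkhead core (reverse complement GTAAACA), stood in 0 of the 9, against 3.21% of all. No match says only that those letters are not in this window on either strand. The Ttr promoter had 40.4% G and C, the lowest of the 9, and the Slc4a2 promoter had the highest with 74.4%.

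Of the 10 genes, Ttr had the largest differences between groups. Its signal was lowest after 5 halothane exposures and above the control mean in the other exposed groups, but it passed the test across all probe sets in no comparison. The brighter of its probe sets, rc_AA945169_g_at, had intensities of 3380.5, 2203.8 and 1349.6 after 5 halothane exposures and of 3461.1, 4093.0 and 5615.8 after 10 halothane exposures. It had 4347.2, 3505.8 and 5371.6 after 5 isoflurane exposures and 4862.3, 3455.8 and 4619.5 after 10 isoflurane exposures, against 2268.6 to 3951.8 with a median of 3309 in the 12 controls. Of the 3 arrays with 5 halothane exposures, 2 lay below every control, and in each of the other exposed groups 2 of 3 arrays lay above every control, so each exposed group overlapped the controls. The group means were 2311 ± 1020 after 5 and 4390 ± 1108 after 10 halothane exposures, 4408 ± 934 after 5 and 4313 ± 752 after 10 isoflurane exposures (SD, n = 3 each), and 3250 ± 450 in controls (SD, n = 12). By mean signal among all probe sets of the group, this Ttr probe set ranked 104 after 5 and 34 after 10 halothane exposures, 36 after 5 and 35 after 10 isoflurane exposures, and 61 in controls. Whole brain is a mixture, and fewer choroid plexus cells in a sample and less Ttr RNA per cell cannot be told apart.

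**Figure D1:**
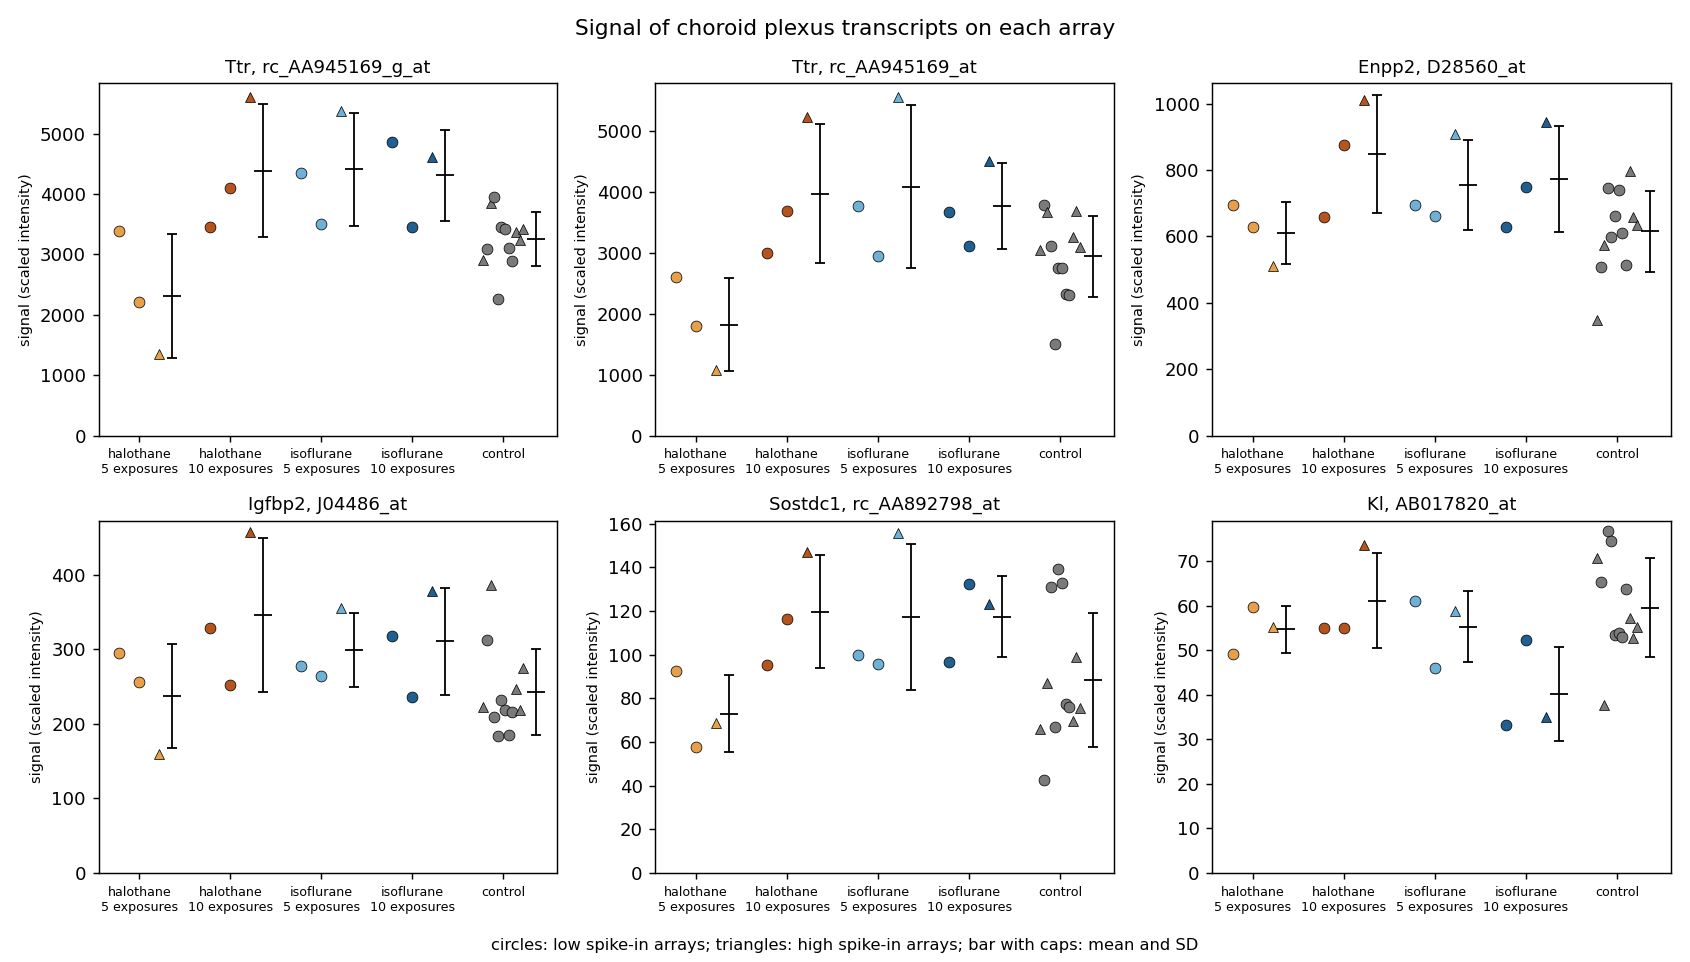
Signal intensity on every array, in panels for both Ttr probe sets, Enpp2 (D28560_at), Igfbp2 (J04486_at), Sostdc1 and Kl, by group (exposed groups at left, controls at right), with circles for low and triangles for high spike-in arrays and bars for the mean ± SD. The Ttr signals after 5 halothane exposures reach down to 1349.6 (rc_AA945169_g_at), while the 12 controls lie between 2268.6 and 3951.8.

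The log2 difference of Ttr (rc_AA945169_g_at) from controls was -0.58 ± 0.20 (SE) after 5 halothane exposures, with a limma unadjusted p of 0.00707 and an adjusted p of 1. It was 0.42 ± 0.20 after 10 halothane exposures (limma, adjusted p = 0.660), 0.43 ± 0.20 after 5 isoflurane exposures (adjusted p = 1) and 0.41 ± 0.20 after 10 isoflurane exposures (adjusted p = 0.548). These 4 comparisons share the same 12 control arrays. Averaged over the 4 exposed groups, the difference from controls was 0.17, since the groups lay on both sides of the control mean.

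The arrays of the other Ttr probe set, rc_AA945169_at, kept much of that order, but fewer lay outside the control range. Only its 1073.1 after 5 halothane exposures lay below every control. Only its 5227.6 after 10 halothane, 5547.0 after 5 isoflurane and 4507.3 after 10 isoflurane exposures lay above every control. It had 2593.2, 1791.0 and 1073.1 after 5 and 2991.8, 3681.3 and 5227.6 after 10 halothane exposures. It had 3758.0, 2939.8 and 5547.0 after 5 and 3666.5, 3103.9 and 4507.3 after 10 isoflurane exposures, against 1499.0 to 3776.8 with a median of 3060 in controls. The log2 difference from controls was -0.74 ± 0.25 after 5 halothane exposures (limma, adjusted p = 1), with 0.44 after 10 halothane, 0.47 after 5 isoflurane and 0.38 after 10 isoflurane exposures. Both Ttr probe sets come from the same sequence accession and so are not independent measurements of the gene.

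The exposed arrays were also compared with each other, without controls. For Ttr, all 3 arrays with 10 halothane exposures lay above all 3 with 5 halothane exposures, by a log2 difference of 0.99 ± 0.25 with a 95% interval of 0.48 to 1.51 (rc_AA945169_g_at, limma unadjusted p = 0.000516, adjusted p = 0.576). All 3 arrays with 5 halothane exposures lay below all 3 with 5 isoflurane exposures, by -1.01 ± 0.25 with an interval of -1.52 to -0.50 (limma unadjusted p = 0.000449, adjusted p = 1). The second probe set gave 1.18 ± 0.31 and -1.21 ± 0.31 (limma adjusted p = 0.746 for 10 against 5 halothane exposures and 1 for 5 halothane against 5 isoflurane exposures). No such gap was seen in the remaining pairs: 10 against 5 isoflurane exposures gave -0.03 (interval -0.54 to 0.49), and 10 halothane against 10 isoflurane exposures gave 0.01 (interval -0.50 to 0.52). The change between 5 and 10 exposures differed between halothane and isoflurane by 1.02 ± 0.35 (interval 0.30 to 1.74, limma interaction term, adjusted p = 1). Thus the contrast in Ttr lay with the group of 5 halothane exposures, and none of these differences passed an adjusted p of 0.05.

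That group was itself spread widely. The coefficient of variation of Ttr was 44.1% after 5 halothane exposures, 25.2% after 10 halothane, 21.2% after 5 isoflurane and 17.4% after 10 isoflurane exposures, against 13.8% in controls (rc_AA945169_g_at). On the log2 scale the SD of this probe set within exposed groups was 0.43, against 0.21 within controls. The second probe set, rc_AA945169_at, differed less, with 0.46 within exposed groups against 0.37 within controls. Its coefficient of variation was 41.8% after 5 and 28.9% after 10 halothane exposures. It was 32.7% after 5 and 18.8% after 10 isoflurane exposures, against 22.6% in controls. Among the 351 probe sets with a mean signal of at least 1000, 16 (4.56%), counting both Ttr probe sets, had an SD within exposed groups at least that of rc_AA945169_g_at. Of all 7389 tested, where dim probe sets are included, 1740 (23.5%) did, again counting both. Among the 351, the median was 0.18 within exposed groups and 0.19 within controls. From the dimmest to the brightest of the 24 arrays Ttr spanned 4.16 fold in rc_AA945169_g_at and 5.17 fold in rc_AA945169_at.

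The arrays at those extremes were the high spike-in ones. Replicate 3 was the lowest Ttr array after 5 halothane exposures, and the highest after 10 halothane and after 5 isoflurane exposures (rc_AA945169_g_at). Without the 4 replicates numbered 3, the log2 differences of Ttr from controls were -0.24 after 5 and 0.23 after 10 halothane exposures, and 0.28 after 5 and 0.35 after 10 isoflurane exposures. Over the 15 low spike-in arrays alone, controls included, they were -0.20 after 5 and 0.27 after 10 halothane exposures, and 0.32 after 5 and 0.39 after 10 isoflurane exposures. Without the replicates numbered 3, the difference of 10 against 5 halothane exposures was 0.46, and that of 5 halothane against 5 isoflurane exposures was -0.52. Without replicate 3 of the 5 halothane exposures alone, they were 0.66 and -0.67. Without replicate 1 of that group they were 1.32 (limma adjusted p = 0.0490) and -1.33 (limma adjusted p = 0.0426), the only values of a member to pass the test in any alternative. Replicate 1 was the highest Ttr array of its group (3380.5), so leaving it out lowers the group mean and widens both differences. Replicate 1 also had the highest 3' to 5' signal ratios of all 24 arrays for GAPDH (1.16) and hexokinase (5.36, against 2.11 and 2.17 on the other arrays of its group). Its beta-actin ratio of 2.10 was the highest of its group (1.75 and 1.64 on the others). The part of RNA quality in the result was not tested.

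Next came the other secreted products. Enpp2, which encodes autotaxin, the enzyme that makes lysophosphatidic acid, had 694.5, 629.4 and 509.6 after 5 and 660.0, 875.9 and 1012.3 after 10 halothane exposures (D28560_at). It had 695.3, 660.4 and 909.6 after 5 and 628.5, 747.9 and 944.2 after 10 isoflurane exposures, against 348.5 to 797.8 with a median of 621.5 in controls. Replicate 3 was again the lowest array after 5 halothane exposures and the highest of the other exposed groups, and every group overlapped the controls. The log2 differences from controls were 0.01 after 5 and 0.47 ± 0.18 after 10 halothane exposures, and 0.31 after 5 and 0.34 after 10 isoflurane exposures (lowest limma adjusted p 0.533). The mean of the exposed groups was 0.28 ± 0.12 above controls (limma adjusted p = 0.481).

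The second Enpp2 probe set, D28560_g_at, had 624.0, 434.0 and 330.4 after 5 and 575.8, 670.0 and 618.3 after 10 halothane exposures, with 594.6, 557.3 and 587.5 after 5 and 548.8, 612.4 and 603.3 after 10 isoflurane exposures, against 302.0 to 641.8 with a median of 469 in controls. Its isoflurane arrays lay close together, with SDs of 19.8 and 34.4 around means of 580 and 588 (n = 3 each), against 473 ± 103 in controls (n = 12). Log2 differences from controls were -0.05 after 5 and 0.42 ± 0.18 after 10 halothane exposures, and 0.33 after 5 and 0.35 after 10 isoflurane exposures (lowest limma adjusted p 0.570). Without the replicates numbered 3, the differences of D28560_at from controls were 0.13 after 5 and 0.33 after 10 halothane exposures, and 0.17 after 5 and 0.19 after 10 isoflurane exposures.

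Sostdc1, a secreted antagonist of BMP and Wnt signalling, was dimmer but had a pattern close to that of Ttr. Its signal was 92.5, 57.8 and 68.7 after 5 and 95.4, 116.5 and 146.9 after 10 halothane exposures. It was 99.8, 95.7 and 155.6 after 5 and 96.5, 132.2 and 123.2 after 10 isoflurane exposures, against 42.4 to 139.1 with a median of 76.7 in controls. All 3 arrays with 5 halothane exposures lay below the other exposed arrays, while the controls spanned nearly the whole range. The log2 differences from controls were -0.23 after 5 and 0.49 ± 0.27 after 10 halothane exposures, and 0.45 after 5 and 0.47 after 10 isoflurane exposures. Without the replicates numbered 3 they were -0.20 after 5 and 0.33 after 10 halothane exposures, and 0.22 after 5 and 0.43 after 10 isoflurane exposures. For 10 against 5 halothane exposures the difference of Sostdc1 was 0.72 ± 0.34 (limma unadjusted p = 0.0466, adjusted p = 1), and 0.53 without those replicates.

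Igf2, a growth factor of the embryo that the choroid plexus and meninges go on making in the adult, did not share the group differences of Ttr. Its brightest probe set, X17012mRNA_s_at, had 508.5, 517.8 and 422.3 after 5 and 503.1, 545.3 and 671.7 after 10 halothane exposures, with 510.2, 579.2 and 540.2 after 5 and 417.1, 444.2 and 536.4 after 10 isoflurane exposures, against 351.4 to 599.6 with a median of 514 in controls. Only 1 exposed array, replicate 3 of 10 halothane exposures, lay outside the control range. Replicate 3 was the lowest array after 5 halothane exposures and the highest after 10 halothane and after 10 isoflurane exposures, but not after 5 isoflurane exposures. Log2 differences from controls were -0.07 after 5 and 0.18 after 10 halothane exposures, and 0.11 after 5 and -0.12 after 10 isoflurane exposures. The change between 5 and 10 exposures differed between halothane and isoflurane by 0.47 (limma interaction term, unadjusted p = 0.0472, adjusted p = 1).

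The remaining Igf2 probe sets were dimmer and their differences from controls lay between -0.19 and 0.15 in every exposed group. M17960_g_at averaged 154 after 5 and 156 after 10 halothane exposures, 153 after 5 and 159 after 10 isoflurane exposures, and 157 in controls. M17960_at had all 3 arrays with 10 isoflurane exposures below all 3 with 5 isoflurane exposures. X16703_r_at and E00988mRNA_s_at lay close to the floor, E00988mRNA_s_at being above it on 3 of 12 control arrays.

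Igfbp2, a binding protein that carries and restrains the IGFs and is secreted into cerebrospinal fluid, gave different pictures on its probe sets. J04486_at had 294.7, 256.7 and 159.3 after 5 and 328.1, 252.3 and 457.6 after 10 halothane exposures. It had 277.2, 264.2 and 355.6 after 5 and 317.9, 236.1 and 378.5 after 10 isoflurane exposures, against 183.4 to 386.2 with a median of 220.9 in controls. As with Ttr, replicate 3 was the lowest after 5 halothane exposures, where it lay below every control, and the highest in the other exposed groups. Log2 differences from controls were -0.05 after 5 and 0.50 ± 0.21 after 10 halothane exposures, and 0.32 after 5 and 0.37 after 10 isoflurane exposures (lowest limma adjusted p 0.587). Without the replicates numbered 3 they were 0.22 after 5 and 0.28 after 10 halothane exposures, and 0.19 after 5 and 0.21 after 10 isoflurane exposures.

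The brightest Igfbp2 probe set, M91595exon_s_at, had 291.5, 308.3 and 361.4 after 5 and 393.4, 335.4 and 320.1 after 10 halothane exposures, with 428.9, 373.2 and 340.4 after 5 and 320.4, 397.6 and 284.3 after 10 isoflurane exposures, against 236.7 to 442.0 with a median of 362 in controls. Here replicate 3 was the highest after 5 halothane exposures and the lowest in the other exposed groups, the reverse of J04486_at, and all exposed arrays lay within the control range. Its differences from controls were -0.15 after 5 and -0.03 after 10 halothane exposures, and 0.10 after 5 and -0.10 after 10 isoflurane exposures. Without the replicates numbered 3 they were -0.24 after 5 and 0.0347 after 10 halothane exposures, and 0.17 after 5 and 0.0094 after 10 isoflurane exposures. A09811cds_s_at gave 0.06 after 5 and 0.34 after 10 halothane exposures, and 0.27 after 5 and 0.41 after 10 isoflurane exposures (lowest limma adjusted p 0.570). The probe sets of Igfbp2 thus disagree, and the gene has no single value here.

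**Figure D2:**
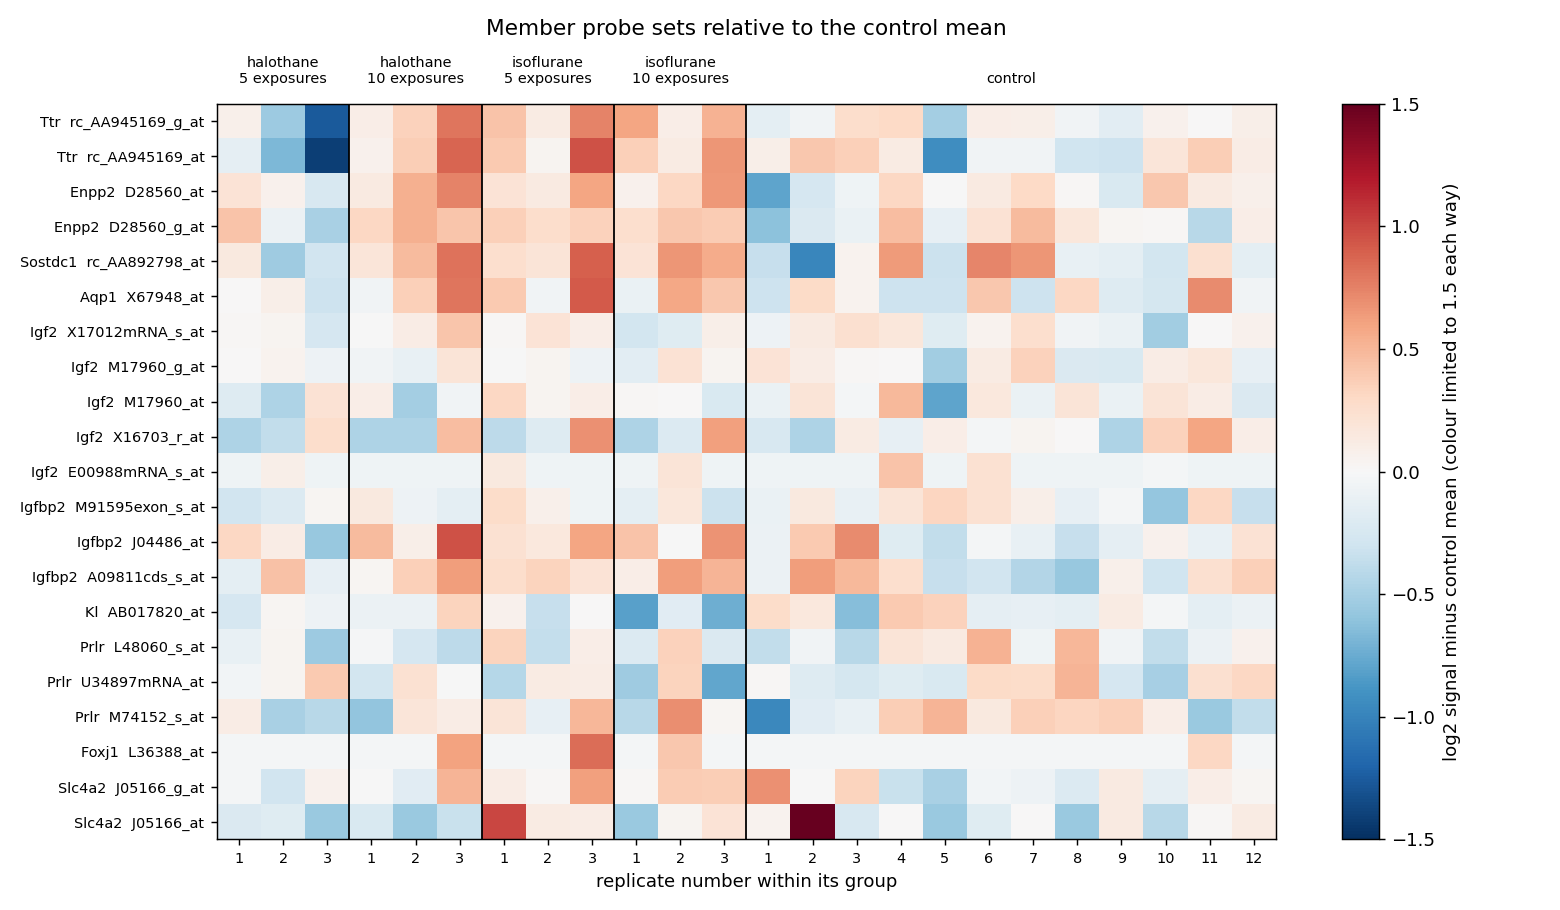
Log2 signal of the 21 tested probe sets (rows) on each of the 24 arrays (columns, exposed groups first and controls last), minus the mean of the 12 controls, with colours limited to 1.5 in each direction. Ttr is lowest on replicate 3 of the 5 halothane exposures (1349.6 against a control median of 3309, rc_AA945169_g_at).

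Among the transporters, Aqp1, the water channel of the epithelium's ventricular membrane, was near the floor of 16.5. It had 20.6, 21.7 and 1.9 after 5 and 19.7, 26.2 and 35.6 after 10 halothane exposures, with 26.9, 19.7 and 38.8 after 5 and 19.1, 30.5 and 27.0 after 10 isoflurane exposures, against 2.8 to 33.4 in controls. It was above the floor on 2 of 3 arrays with 5 halothane exposures, on all arrays of the other exposed groups and on 8 of 12 controls. Log2 differences from controls, with values under the floor set to it, were -0.07 after 5 and 0.37 after 10 halothane exposures, and 0.42 after 5 and 0.29 after 10 isoflurane exposures, and at this signal they understate any change.

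Slc4a2, an exchanger of chloride and bicarbonate on the blood side of the epithelium, had 100.5, 83.7 and 107.0 after 5 and 102.1, 91.3 and 146.0 after 10 halothane exposures (J05166_g_at). It had 110.9, 104.1 and 157.4 after 5 and 103.9, 133.3 and 132.2 after 10 isoflurane exposures, against 73.1 to 165.4 with a median of 101 in controls. No exposed array lay outside the control range, and log2 differences were -0.09 after 5 and 0.11 after 10 halothane exposures, and 0.25 after 5 and 0.26 after 10 isoflurane exposures. The dim probe set J05166_at averaged 18.3 after 5 and 18.8 after 10 halothane exposures, and 33.8 after 5 and 23.1 after 10 isoflurane exposures, against 26.1 in controls, where control 2 was the brightest array.

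The hormone-linked members came next. Kl encodes klotho, a co-receptor for FGF23 that choroid plexus epithelium makes. Its signal was 49.1, 59.7 and 55.3 after 5 and 55.0, 54.9 and 73.6 after 10 halothane exposures. It was 61.0, 46.1 and 58.8 after 5 and 33.2, 52.2 and 35.1 after 10 isoflurane exposures, against 37.6 to 76.7 with a median of 56.2 in controls. After 10 isoflurane exposures 2 of 3 arrays lay below every control and the remaining array, replicate 2, within them. The log2 difference from controls was -0.57 ± 0.19 there (interval -0.97 to -0.18, limma adjusted p = 0.370), the lowest adjusted p of any member, against -0.10 after 5 halothane, 0.05 after 10 halothane and -0.09 after 5 isoflurane exposures. All 3 arrays with 10 halothane exposures lay above all 3 with 10 isoflurane exposures, by 0.62 ± 0.24 (limma adjusted p = 1).

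Prlr, the prolactin receptor, which choroid plexus epithelium carries, had 3 tested probe sets. L48060_s_at averaged 57.2 after 5 and 55.9 after 10 halothane exposures, 67.4 after 5 and 64.9 after 10 isoflurane exposures, and 66.3 in controls. Its log2 differences from controls lay between -0.22 and 0.03, those of U34897mRNA_at between -0.33 and 0.13 and those of M74152_s_at between -0.27 and 0.19. The 2 untested probe sets stayed between 0.8 and 8.0 on all arrays, so they have no level to compare.

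Foxj1, the factor that switches on motile cilia genes in ependyma and choroid plexus, was above the floor on 4 of the 24 arrays. These were 1 array each of 10 halothane (25.6), 5 isoflurane (30.0) and 10 isoflurane exposures (22.3), and 1 of 12 controls (20.8). Its log2 differences from controls, -0.03 to 0.26, therefore rest on those arrays.

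Set together, the 21 tested probe sets had 0 called in each of the 9 comparisons and in the interaction. Over all 7389 probe sets tested, the share called at an adjusted p under 0.05 was 0.0135% for 5 halothane exposures against controls, 0.0406% for 10 halothane exposures against controls, 0.0135% for 10 against 5 halothane exposures, 0.0135% for 5 halothane against 5 isoflurane exposures, and 0% in the other comparisons and the interaction. With so few calls in the whole table, 0 among 21 is no result about the members. Over all probe sets, the 95% interval typically (by its median) reached 0.41 on the log2 scale to either side for an exposed group against controls and 0.52 between exposed groups.

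At an unadjusted p under 0.05, 0 members were higher and 2 lower after 5 halothane exposures than in controls (1.65% and 1.88% of all probe sets), and 4 were higher and 0 lower after 10 halothane exposures (3.38% and 4.14%). The 2 lower were both Ttr probe sets, and the 4 higher were Ttr (rc_AA945169_g_at), both Enpp2 probe sets and Igfbp2 (J04486_at). After 5 isoflurane exposures 1 was higher and 0 lower (1.14% and 1% of all), and after 10 isoflurane exposures 1 was higher and 1 lower (4.47% and 4.59%), Ttr and Kl. For 10 against 5 halothane exposures 5 were higher and 0 lower (1.85% and 1.91% of all): both Ttr probe sets, Enpp2 (D28560_g_at), Sostdc1 and Igfbp2 (J04486_at). For 5 halothane against 5 isoflurane exposures 0 were higher and 2 lower (1.39% and 1.58% of all), both of Ttr, for 10 halothane against 10 isoflurane exposures 1 was higher, Kl, and 0 lower (1.2% and 1.91%), and for 10 against 5 isoflurane exposures 0 were higher and 0 lower (1.41% and 1.6%).

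No member's exposed arrays all lay above or all below the 12 controls, which 0.122% and 0.23% of all probe sets did after 5 halothane, 0.595% and 0.528% after 10 halothane, 0.135% and 0.0947% after 5 isoflurane, and 0.487% and 0.433% after 10 isoflurane exposures. Between exposed groups of 3, 3 members did not overlap with 10 halothane above 5 halothane exposures (3.1% of all probe sets), both Ttr probe sets and Sostdc1, and 0 with 10 below 5 (5.32% of all). With 5 halothane below 5 isoflurane exposures there were 5 (5.17% of all): both Ttr probe sets, Sostdc1, Foxj1 and Slc4a2 (J05166_at), with 0 the other way (4.33% of all). For Foxj1 this gap lies almost wholly under the floor of 16.5, where values have no order, since 1 of its 6 arrays exceeded it. With 10 isoflurane below 5 isoflurane exposures there was 1, Igf2 (M17960_at), and 0 above (3.78% and 3.8% of all). With 10 halothane above 10 isoflurane exposures there was 1, Kl, and 0 below (2.58% and 3.65% of all).

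The median log2 difference of the members from controls was -0.09 after 5 halothane exposures, against -0.01 over all probe sets, with 3 of 21 members above 0 against 48.2% of all. It was 0.11 after 10 halothane exposures, against -0.03, with 13 of 21 above 0 against 43.8%. After 5 isoflurane exposures it was 0.25, against 0.01, with 18 of 21 above 0 against 51.6%, and after 10 isoflurane exposures 0.10, against 0.00, with 13 of 21 above 0 against 49.5%. For 10 against 5 halothane exposures 16 of 21 were above 0 (46.3% of all), and for 5 halothane against 5 isoflurane exposures 2 of 21 were (47.7% of all). For 10 against 5 isoflurane exposures 8 of 21 were above 0 (47.8% of all), and for 10 halothane against 10 isoflurane exposures 12 of 21 were (45.6% of all). Probe sets of the same gene share a target, so these are not 21 separate observations.

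**Figure D3:**
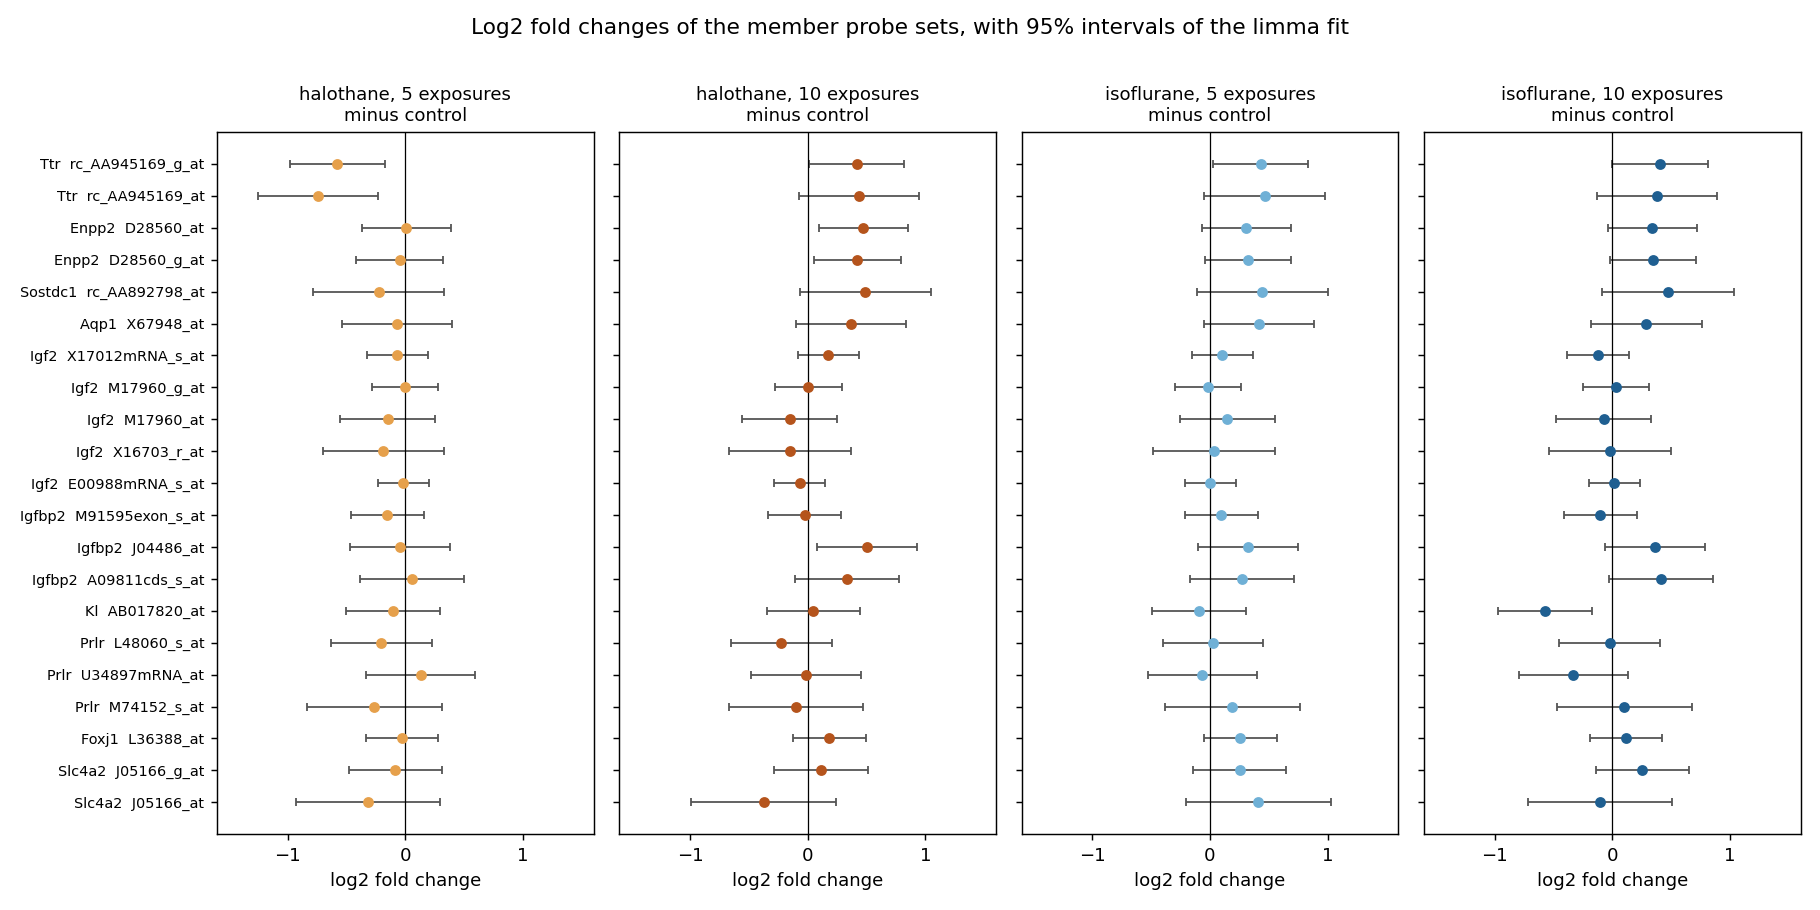
Log2 fold changes of the 21 tested probe sets against controls in 4 panels, 1 for each exposed group, with points for the limma estimate and bars for its 95% interval. Ttr lies at -0.58 after 5 halothane exposures (rc_AA945169_g_at) and Kl at -0.57 after 10 isoflurane exposures, and both intervals exclude 0 before adjustment.

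The transcripts were next compared for how they moved together across the 12 control arrays. Of 210 pairs among the 21 probe sets, 0 were called at a Benjamini-Hochberg adjusted permutation p under 0.05 and 18 at an unadjusted one, 4 of them pairs of 1 gene. The share over pairs of other probe sets was not computed, so the 18 are no result about the members. The median Pearson r over all pairs was 0.12. With Ttr (rc_AA945169_g_at), the 20 other probe sets had r from -0.49 to 0.75 with a median of 0.26, and 16 of 20 were positive, while the 7368 other probe sets tested had a median of -0.03. All probe sets of an array share its scaling.

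The second Ttr probe set followed the first with r = 0.73 (rho = 0.39, permutation p = 0.0123, adjusted p = 0.322), and with 0.40 once the 2 controls farthest from the median of Ttr, 4 and 5, were left out. Among the secreted factors, the brightest Igf2 probe set, X17012mRNA_s_at, had r = 0.46 and rho = 0.70 (permutation p = 0.138, adjusted p = 0.649), with 0.33 without those 2 controls and 0.81 within the 7 low spike-in controls. Enpp2 (D28560_at) had r = 0.42 and rho = 0.62 (permutation p = 0.164, adjusted p = 0.664), with 0.59 without the 2 controls and 0.57 within the low spike-in ones, but 0.0208 against the second Ttr probe set. Sostdc1 had r = 0.52 and rho = 0.71 (permutation p = 0.0812, adjusted p = 0.580), with 0.46 without them and 0.61 within the low spike-in controls, but -0.0011 against the second Ttr probe set. Igfbp2 (J04486_at) had r = 0.49 and rho = 0.36 (permutation p = 0.109, adjusted p = 0.614), with 0.59 without them and 0.27 within the low spike-in controls. The 5 high spike-in controls are too few for a value of their own.

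The highest r with Ttr in controls was that of a dim Igf2 probe set, M17960_at, at 0.75 (rho = 0.37, permutation p = 0.0120, adjusted p = 0.322). It rests on controls 4 and 5, since it was -0.01 without them. Igf2 M17960_g_at likewise had 0.58, and 0.21 without them (permutation p = 0.0491, adjusted p = 0.532). Kl ran the other way, with r = -0.49 (rho = -0.35, permutation p = 0.104, adjusted p = 0.614) and -0.88 without controls 4 and 5. Aqp1 (0.15), Foxj1 (0.02), Slc4a2 (0.15 and 0.07) and Prlr (-0.08 to 0.09) had no clear relation to Ttr.

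The 12 exposed arrays were taken as deviations from their group means and permuted within groups. There the median r with Ttr was 0.21 and 15 of 20 were positive, with 4 at an unadjusted p under 0.05. The share of other probe sets at such a p was not computed. After adjustment over 210 pairs 0 were called. Groups of 3 allow few distinct orders, so an adjusted p under 0.05 was hardly within reach, and 0 called is no result about these pairs. The 7347 other probe sets tested had a median r of -0.03, with 171 at 0.7 or more. The second Ttr probe set had r = 0.96 (permutation p = 0.00233, adjusted p = 0.293), which was 0.96 also without the replicates numbered 3. Igfbp2 J04486_at had 0.85 (permutation p = 0.00820, adjusted p = 0.293), with 0.75 without replicate 3 of the 5 halothane exposures and 0.49 without all replicates numbered 3. Enpp2 had 0.68 (D28560_at, permutation p = 0.0298, adjusted p = 0.329) and 0.75 (D28560_g_at, permutation p = 0.147), which were 0.19 and 0.62 without the replicates numbered 3. Sostdc1 had 0.55 and Aqp1 0.51, and 0.37 and -0.17 without those replicates. By r with Ttr in these arrays, Igf2 X17012mRNA_s_at ranked 504 of 7388 probe sets, beside Sostdc1 at 501. The other tested Igf2 probe sets ranked from 2759 to 6041. The Igfbp2 probe set M91595exon_s_at ran against Ttr with -0.72 (permutation p = 0.0167, adjusted p = 0.293) and against J04486_at of its own gene with -0.73, after -0.23 and -0.30 in controls.

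**Figure D4:**
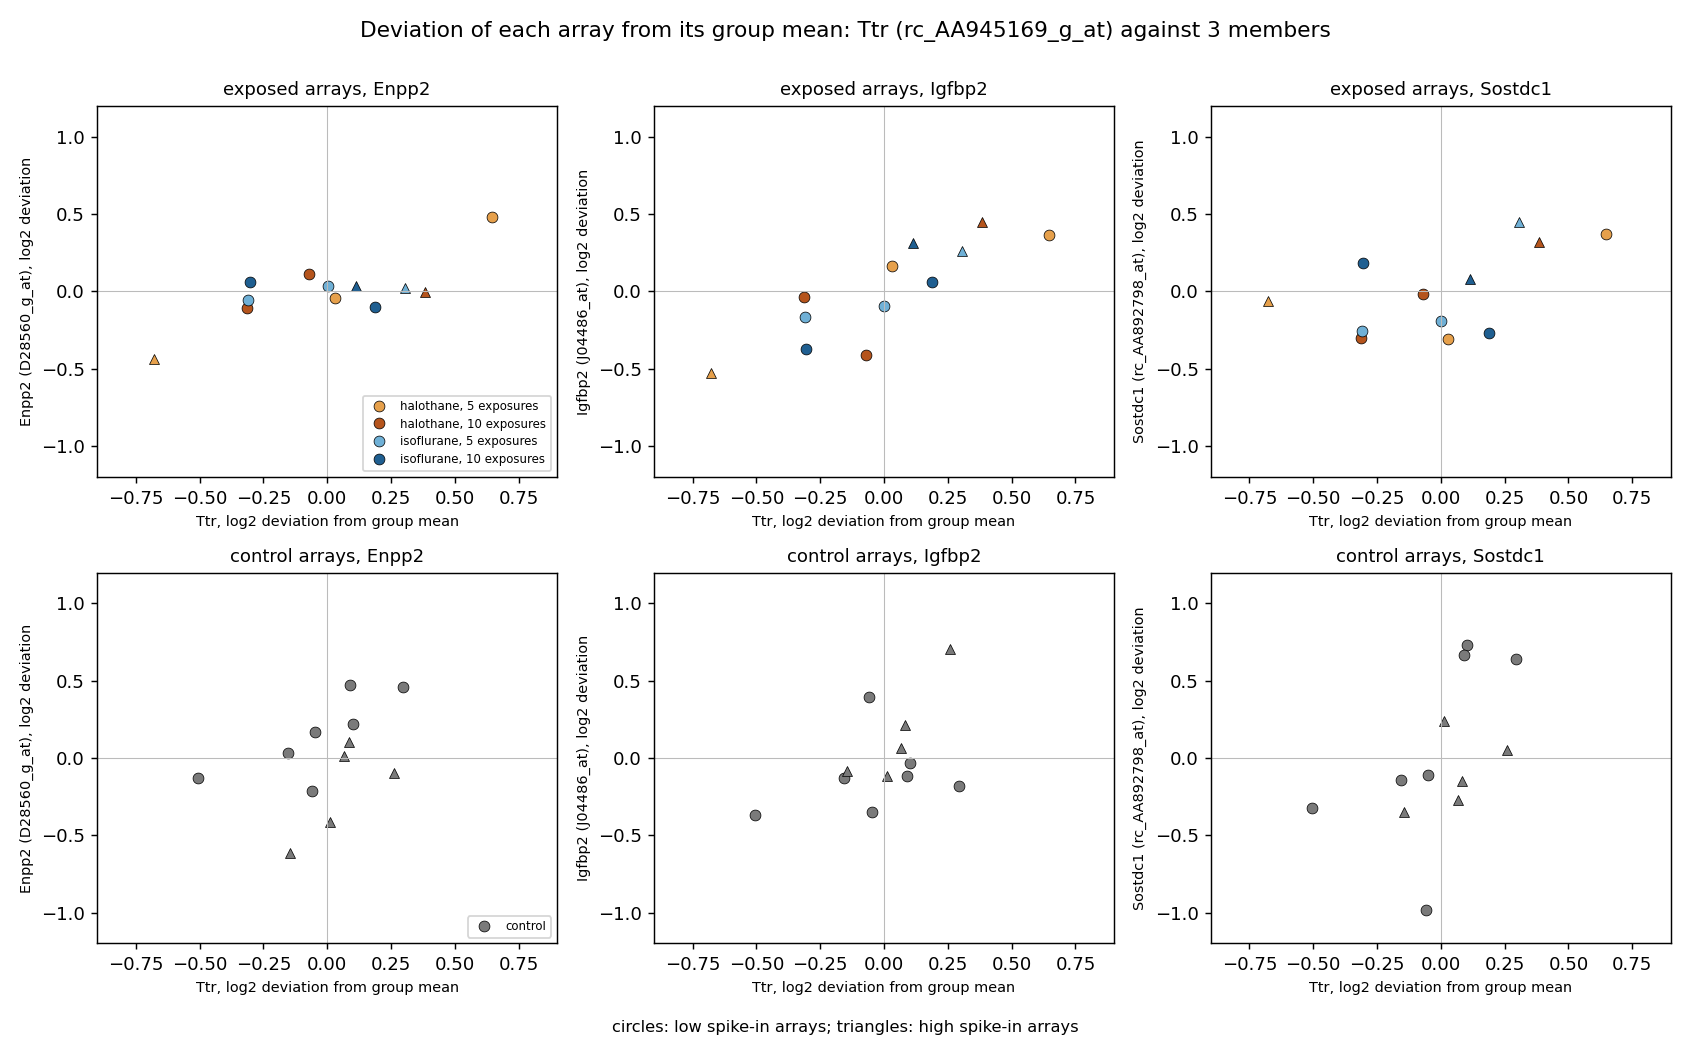
Log2 deviations of Enpp2 (D28560_g_at), Igfbp2 (J04486_at) and Sostdc1 from their group means (vertical axes) against those of Ttr (horizontal axes), for the 12 exposed arrays in the upper row and the 12 controls in the lower row. The exposed arrays spread more widely along Ttr (rc_AA945169_g_at), with an SD of 0.43 against 0.21 in controls. The second Ttr probe set, not drawn, had 0.46 against 0.37.

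**Figure D5:**
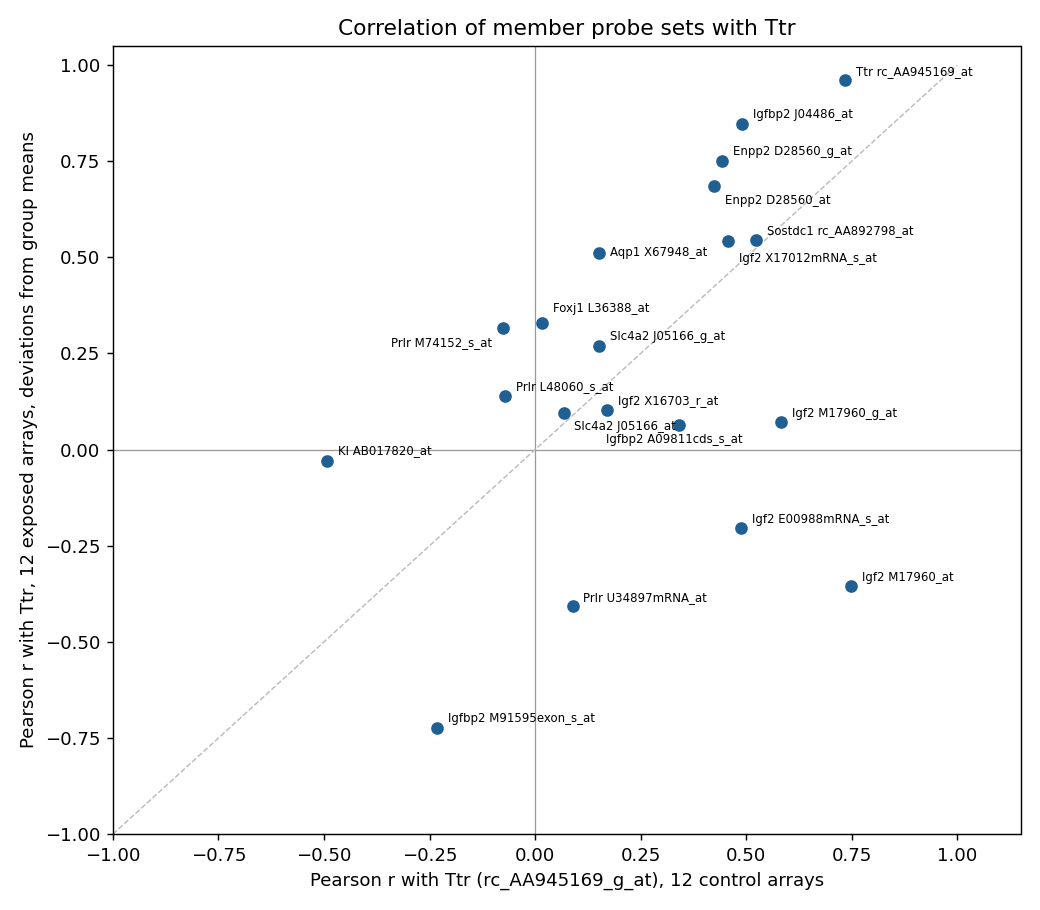
Pearson r of each of the 20 other probe sets with Ttr (rc_AA945169_g_at) in the 12 controls (horizontal) and in the 12 exposed arrays as deviations from group means (vertical), with the dashed line where both are equal. The second Ttr probe set lies at 0.73 and 0.96, Igfbp2 J04486_at at 0.49 and 0.85, and Igf2 M17960_at at 0.75 and -0.36.

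Probe sets of the same gene did not always move together in controls. The 19 same-gene pairs had a median r of 0.21 in controls, against 0.12 over all pairs. The Enpp2 pair had r = 0.71 (permutation p = 0.00839, adjusted p = 0.294) and Igfbp2 J04486_at with A09811cds_s_at had 0.72 (permutation p = 0.00555, adjusted p = 0.281). The Slc4a2 pair had 0.22, and the 3 Prlr pairs ran from -0.15 to 0.59. Across all tested probe sets with 1 symbol, the genes most like Ttr in controls were Adra1d (r = 0.88), Ly6c (0.82), Mapkapk3 (0.80) and Hes5 (0.79), with -0.24, -0.71, 0.51 and 0.17 in the exposed arrays. Without controls 4 and 5 their r was 0.73, 0.57, 0.37 and 0.37.

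The wider list of choroid plexus epithelial markers, which holds these genes too, had 0 of 23 rise and 0 fall in all 4 comparisons with controls. In these, 0% to 0.0406% of all probe sets were called. Its median log2 difference was -0.10 after 5 halothane exposures with 6 of 23 above 0 (48.2% of all probe sets). It was 0.18 after 10 halothane exposures with 19 of 23 above 0 (43.8% of all). It was 0.11 after 5 and 0.16 after 10 isoflurane exposures, with 16 and 17 of 23 above 0 (51.6% and 49.5% of all). Without Ttr, the summed signal of the 23 other markers on the array was 2951.0, 2613.4 and 2417.8 after 5 and 2933.4, 3295.0 and 3524.3 after 10 halothane exposures, and 3083.9, 2922.8 and 3275.3 after 5 and 2761.6, 3265.1 and 3101.3 after 10 isoflurane exposures, against 2522.7 to 3164.8 in controls. Replicate 3 of the 5 halothane exposures, the array with the least Ttr, also had the lowest of these sums, below every control.

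Markers of other tissues that could hold these transcripts were measured beside them, and their part in the results was not tested. The 16 liver genes on the array (14 of them tested), whose tissue also makes Ttr, summed to 834 to 1338 after 5 halothane exposures, with the lowest sum on the array of least Ttr. Their median there (1158.8) and highest sum lay above every control. The sums were 899 to 1025 after 10 halothane, 883 to 1075 after 5 isoflurane and 806 to 1136 after 10 isoflurane exposures, against 783.5 to 1158.2 in controls. After 5 halothane exposures 11 of the 14 tested differed from controls by more than 0 (median 0.23), against 48.2% of all probe sets (median -0.01). The 20 genes of meninges and fibroblasts, which also make Igf2 and Igfbp2, summed to 9587 to 10966 after 5 and 10168 to 11427 after 10 halothane exposures, and 9579 to 11199 after 5 and 9675 to 12548 after 10 isoflurane exposures, against 8599 to 12471 in controls. Of 8 ependymal and cilia genes on the array 6 were tested, and the axonemal dyneins Dnah1 and Dnah5 lay at or below the floor on all arrays. The sums over the 8 were 397 to 508 after 5 and 371 to 621 after 10 halothane exposures, and 415 to 507 after 5 and 417 to 509 after 10 isoflurane exposures, against 399.9 to 615 in controls. The 7 blood genes on the array (6 of them tested) summed to 484 to 1059 after 5 and 478 to 504 after 10 halothane exposures. They summed to 686 to 744 after 5 and 456 to 698 after 10 isoflurane exposures, against 599 to 1049 in controls. All arrays with 10 halothane exposures lay below every control. The medians after 5 halothane (558) and after 10 isoflurane exposures (472) also lay below every control, while the arrays with 5 isoflurane exposures lay within them.

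Markers of the main brain cell types also stood apart on the array brightest in the Ttr probe set rc_AA945169_g_at. In rc_AA945169_at that array had 5227.6, and replicate 3 of the 5 isoflurane exposures was the brightest with 5547.0. Replicate 3 of the 10 halothane exposures had the lowest neuronal sum (5340.1) and the lowest myelin sum (8470.5) and the highest astrocyte sum (13078.0) of the 24 arrays. Summed signals of the 10 neuronal genes on the array were 6781 to 8253 after 5 and 5340 to 8201 after 10 halothane exposures, and 6816 to 8430 after 5 and 6377 to 8593 after 10 isoflurane exposures, against 6242 to 8468 in controls. Those of the 9 myelin genes were 10468 to 11342 after 5 and 8471 to 11605 after 10 halothane exposures, and 10257 to 12374 after 5 and 10153 to 12627 after 10 isoflurane exposures, against 9019 to 13103 in controls. In the log2 differences from controls, 0 of 9 myelin genes were above 0 after 10 halothane exposures (median -0.24). Over all probe sets 43.8% were (median -0.03). Of the myelin genes 0 rose or fell, where 0.0406% of all were called. The summed signals of the 8 astrocyte genes were 10060.0 to 12712 after 5 and 10563 to 13078 after 10 halothane exposures, and 10492 to 12355 after 5 and 10787 to 12175 after 10 isoflurane exposures, against 9261 to 12232 in controls. What part these shifts have in the Ttr values was not tested.

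The pathways of the members showed no called change in any exposed group against controls. Since 0% to 0.0406% of all probe sets were called in those comparisons, 0 in a list is no result about its genes. Of 15 tested genes of retinol and thyroid hormone carriage 0 rose and 0 fell, and Rbp4, the retinol carrier that binds transthyretin, averaged 205.7 after 5 and 194.6 after 10 halothane exposures, and 151.7 after 5 and 163.3 after 10 isoflurane exposures, against 129.97 in controls (limma adjusted p = 1 after 5 and 0.469 after 10 halothane exposures). Of 10 genes of the IGF axis 0 rose and 0 fell. Igf2r, the receptor that clears IGF2, averaged 93.4 after 5 and 96.5 after 10 halothane exposures, and 46.2 after 5 and 106.2 after 10 isoflurane exposures, against 43.9 in controls (lowest limma adjusted p 0.244). Igf1 differed from controls by -1.30 after 10 halothane exposures (limma adjusted p = 0.482).

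Of 7 genes of lysophosphatidic acid signalling, downstream of Enpp2, 0 rose and 0 fell, and Lpar2, a receptor for that lipid, differed by 0.82 ± 0.16 after 5 isoflurane exposures (limma adjusted p = 0.262). Of 16 BMP and Wnt genes 0 rose and 0 fell, and Fzd2, a Wnt receptor, differed by -0.81 ± 0.19 after 10 halothane exposures (limma adjusted p = 0.199). The 24 genes of water and ion transport, the 11 of klotho and FGF23 and the 12 of prolactin signalling likewise had 0 called in either direction. Klotho's partner list had medians of -0.02 after 5 and -0.26 after 10 halothane exposures, and -0.06 after 5 and -0.11 after 10 isoflurane exposures, against medians of -0.01, -0.03, 0.01 and 0.00 over all probe sets.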

How the data were processed

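Total RNA of whole rat brain was measured on 24 single-colour oligonucleotide arrays in 5 groups, mapped from the sample titles. For every array the authors deposited linear intensities, 1 for each probe set. The sources used here do not state how probes were summarised and scaled, and no detection calls were used. Since the 2% trimmed means were equal, the deposited scaling was kept.

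Intensities under 16.5, the 25th percentile of the table, were set to it and log2 was taken, which understates changes of dim genes. The 59 control probe sets were dropped, and a probe set had to exceed that floor on 3 or more arrays, as 7389 did. The model was limma's (version 3.58.1, R 4.3.3; 5 groups, intensity trend, two-sided, Benjamini-Hochberg over 7389), with calls at an adjusted p under 0.05. The fit was tested on simulated data. Correlations were tested with 100000 permutations. For exposed arrays these were drawn within groups of 3, which allow few distinct orders and so limit how small p can be. The number of arrays limits the precision.

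The members and gene lists were chosen with earlier results of these data known. All member probe sets are named, with full values for those that carry a result. The list genes named from each pathway were among the lowest p in a comparison, and the genes most like Ttr were ranked by r over the controls. Deviations from group means of same-numbered arrays correlated by 0.0870 to 0.520 between exposed groups. Every same-numbered pair was over 0.1 between 10 halothane exposures and either isoflurane group. The same held between 10 and 5 isoflurane exposures, and between 5 halothane and 10 isoflurane exposures. The lowest same-numbered pairs were 0.0957 for 10 with 5 halothane and 0.0870 for 5 halothane with 5 isoflurane exposures. Arrays of different numbers correlated by -0.371 to 0.215, so some of them also exceeded 0.1. Between any exposed groups the highest same-numbered value was that of the replicates numbered 3, all of high spike-in signal. The labels do not say that the numbers pair arrays, and a pairing and a shared array level cannot be told apart. Alternatives covered normalization, floor, filter, trend, samples, replicate block and spike-in level. The variant without the replicates numbered 3, and the correlations with the other Ttr probe set and within spike-in levels, were chosen after seeing the data.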

Additional observations from a re-analysis of the deposited data

How the results depend on the processing

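No member was called in any comparison under the other normalizations, floors, filter, trend, sample choices, replicate block and spike-in alternatives. Leaving out 1 array at a time gave 0 to 1 called for 10 against 5 halothane exposures and for 5 halothane against 5 isoflurane exposures. The call was of Ttr (rc_AA945169_g_at) without replicate 1 of the 5 halothane exposures, the highest Ttr array of that group. In the fit with the replicate number as a block, the numbers 4 to 12 belong to controls alone. Those controls drop out, so exposed groups were compared with controls 1 to 3 only. There the Ttr differences were -0.60 for 5 halothane exposures against controls and 0.99 for 10 against 5 halothane exposures, and the block changed no member's call. Over all alternatives the second Ttr probe set ran from -1.04 to -0.25 for 5 halothane exposures against controls.

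Of 864 log2 differences with 1 array left out 12 changed sign, and of 432 under the other alternatives 9 did, mainly of Igfbp2. M91595exon_s_at after 10 halothane exposures was 0.0201 with median centring. With the replicate block, which compares with controls 1 to 3 only, Sostdc1 after 5 halothane exposures was 0.20 and Igfbp2 J04486_at after 5 isoflurane exposures was -0.0153. J04486_at after 5 halothane exposures was 0.33 against controls and 0.0234 against 5 isoflurane exposures over low spike-in arrays, and 0.22 and 0.0234 without the replicates numbered 3, where M91595exon_s_at was 0.0347 after 10 halothane and 0.0094 after 10 isoflurane exposures. Leaving out 1 array, differences from controls ran from -0.0903 to 0.133 for Enpp2 D28560_at after 5 halothane exposures, -0.23 to 0.22 for J04486_at after 5 halothane exposures, -0.114 to 0.0347 for M91595exon_s_at after 10 halothane exposures and -0.233 to 0.0094 after 10 isoflurane exposures. With the other Ttr probe set, r in controls was -0.18 for Enpp2 D28560_g_at and -0.0011 for Sostdc1. That of Igf2 M17960_at with Ttr was -0.36 in exposed arrays and -0.0088 without the 2 farthest controls. The causes were not tested.

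Counts over all probe sets also moved. For 10 halothane exposures against controls 3 were called, with 1 to 15 over the alternatives, and for the mean of the exposed groups 0, with 27 under the replicate block. The 15 came from that block too, which leaves only controls 1 to 3 in the comparison. Groups of 3 limit what can be seen: a difference under 0.41 from controls lies within the typical 95% interval.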
